A study of Mus musculus with 5 samples.

Results

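Transcripts of Polycomb repressive complex 2 (PRC2) and its partners were followed through 10 genes, Ezh2, Ezh1, Eed, Suz12, Rbbp4, Rbbp7, Jarid2, Mtf2, Phf19 and Cbx2. They were taken by symbol from the 28001 features of a droplet-based single-cell RNA data set, and all 10 were present in each of 5 mouse libraries. The libraries held sorted tdTomato-positive cells of C57BL/6J mice: 1 library of mesenchymal progenitors from quiescent hindlimb muscle and 4 of epithelioid sarcomas at endpoint. All animals carried Hic1CreERT2/CreERT2, a tamoxifen-activated Cre recombinase expressed from Hic1, a gene of mesenchymal progenitors. The muscle sample was Rosa26LSLtdTomato/+, and its label lists no Smarcb1 allele. The sarcoma samples were Rosa26LSLtdTomato/LSLtdTomato with Smarcb1FL/FL, a floxed core subunit of the SWI/SNF chromatin remodeller. Sarcomas 1 to 4 came from the shoulder, head, head/ear and hip. Mice aged 8 weeks received 2.5 mg tamoxifen in 100 µL of oil on 5 days, and 10 days without it followed. The age of the sarcoma mice at collection is not given in the sources used here. Genotype, reporter copies, site and tumour state differ together between muscle and sarcoma and cannot be told apart. The labels do not say that each library came from a separate animal, so a p-value reflects the spread between libraries alone, and that spread may be technical.

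PRC2 places methyl groups on lysine 27 of histone H3, a mark of silenced developmental genes. Its catalytic subunit is EZH2 or the related EZH1, held in a core with EED, SUZ12 and the histone-binding proteins RBBP4 or RBBP7. Accessory proteins such as JARID2, MTF2 and PHF19 steer the core to chromatin, and CBX2 is a subunit of Polycomb repressive complex 1 that reads the mark. EZH2 is known as the form of dividing cells and EZH1 as the form that persists in resting tissue. PRC2 and SWI/SNF are known to oppose each other, and an EZH2 inhibitor is used against epithelioid sarcoma in patients.

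Cells were sorted into classes by their own counts of unique molecular identifiers (UMIs). A sarcoma cell had at least 2 UMIs of Gchfr and 0 of Smarcb1, and a stroma cell had at least 4 UMIs summed over Ddah1, Wisp1, C1qtnf7 and Fbn2. Cells meeting both rules entered neither class. A cell with a UMI of Mki67 or Top2a was called cycling. Sarcoma cells numbered 5142, 7423, 2851 and 3265 in sarcomas 1 to 4, of which 1854, 2813, 484 and 640 were cycling. Stroma cells numbered 184, 156, 1732 and 79. Muscle held 8107 kept cells, of which 73 were cycling, and no muscle cell met the sarcoma rule. Library totals ran from 64061069 UMIs in muscle to 213271163 in sarcoma 2, and the median kept cell held 7566 UMIs in muscle and 20005 to 28658 in the sarcomas. Levels are given as CPM, the UMIs of a gene per 1000000 UMIs of the class in a library. In a level over many cells, fewer cells of a type and less RNA per cell cannot be told apart. They were compared between samples and not between genes, because a 3′ count is not a level per transcript length.

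The stroma of sarcoma 4 went against its class name. Smarcb1 stood at 45.1, 66.4 and 59.8 CPM in the stroma of sarcomas 1 to 3, against 88.7 in muscle, but at 9.75 in the stroma of sarcoma 4. The 9 progenitor markers summed to 7139, 8339 and 15850 CPM in the non-cycling stroma of sarcomas 1 to 3 and to 1246 in that of sarcoma 4, against 55798 in muscle. Tests on stroma are therefore given with and without sarcoma 4. Sarcoma cells also carried different marker levels from tumour to tumour: 5 endothelial genes summed to 240 and 326 CPM in non-cycling cells of sarcomas 1 and 2 and to 12.7 and 2.32 in sarcomas 3 and 4. Their part in the results was not tested.

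In cycling against non-cycling sarcoma cells of the same tumour, Ezh2, Phf19 and Suz12 rose and Ezh1 fell. Those 4 of 10 genes passed the test, beside 8.32% of the 14522 genes tested in that comparison (edgeR quasi-likelihood test with the library as a block, Benjamini-Hochberg adjusted p under 0.05). Rises were 5.42% of all genes tested and falls 2.9%.

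Ezh2, the catalytic subunit (ENSMUSG00000029687, chromosome 6, 47530139 to 47595341, minus strand, mm10), stood at 20.8, 19.1, 21.5 and 13.5 CPM in non-cycling cells of sarcomas 1 to 4. In cycling cells it stood at 58.7, 49.2, 44.7 and 43.0 CPM. Every cycling value lay above every non-cycling value, as for 3.66% of genes tested. The log2 fold change was 1.36 ± 0.08 (SE), with an edgeR adjusted p of 0.000302, and it passed under all 15 alternative settings. Per tumour the cycling level was 2.82, 2.58, 2.08 and 3.18 times the non-cycling one. Cycling muscle cells held 30.1 CPM (95% Poisson interval 18.6 to 46.0 in 73 cells) against 13.2 in the other muscle cells (12.3 to 14.1), and such intervals cover counting error only. Cycling cells took 67.3, 69.0, 38.2 and 50.7% of the Ezh2 UMIs of sarcoma cells in sarcomas 1 to 4, and 42.2, 46.3, 22.9 and 24.4% of all UMIs.

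Phf19, an accessory subunit that binds methylated lysine 36 of histone H3 (ENSMUSG00000026873, chromosome 2, 34893757 to 34914026, minus strand), was close to the limit of detection outside division. It stood at 0.212, 0.104, 0.146 and 0.170 CPM in non-cycling and at 2.10, 0.965, 2.03 and 2.36 CPM in cycling sarcoma cells. These levels rest on 18, 11, 8 and 14 UMIs against 130, 88, 33 and 63. The groups did not overlap, and the rise was 3.45 ± 0.20 on the log2 scale (SE, edgeR adjusted p = 0.000260), the largest of the 10 genes in this comparison. Muscle showed the same order, with 4 UMIs in 73 cycling cells (5.73 CPM, 95% Poisson interval 1.56 to 14.7) and 22 UMIs in the other cells (0.351 CPM).

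Suz12, the core scaffold (ENSMUSG00000017548, chromosome 11, 79993106 to 80034123, plus strand), rose by a smaller step. Non-cycling sarcoma cells held 36.6, 48.7, 42.3 and 59.3 CPM and cycling ones 52.7, 60.8, 55.9 and 83.6. It was higher in cycling cells of all 4 tumours, although the 2 ranges overlapped. The log2 fold change was 0.40 ± 0.06 (SE, edgeR adjusted p = 0.0116). The call was lost without sarcoma 1 (0.35, adjusted p = 0.0724) and with a stricter division rule of 10 genes (0.46, adjusted p = 0.0545), and over the alternatives the adjusted p ran from 2.51e-07 to 0.99992.

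Ezh1, the other catalytic subunit (ENSMUSG00000006920, chromosome 11, 101191115 to 101226463, minus strand), moved the opposite way as a share of a cell's transcripts. It stood at 23.3, 24.0, 21.2 and 26.1 CPM in non-cycling and 15.9, 21.6, 13.3 and 24.1 in cycling sarcoma cells. The value was lower in cycling cells of all 4 tumours, as for 15.2% of genes tested, by a log2 fold change of −0.40 ± 0.09 (SE, edgeR adjusted p = 0.0470). This call was close to the threshold. It was lost on leaving out any 1 sarcoma (adjusted p 0.0714 to 0.200), on scaling by library size alone (0.0999) and after thinning each cell to 2000 UMIs (0.173). Cycling cells also hold more RNA. Counted per cell, Ezh1 UMIs in cycling cells were 0.883, 1.27, 0.911 and 1.22 times those in non-cycling cells of sarcomas 1 to 4, so no common direction was seen on that scale. The same ratio for Ezh2 was 3.65, 3.64, 3.02 and 4.22.

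The other 6 genes did not pass, and their directions were mostly shared. Eed, Mtf2, Cbx2, Rbbp4 and Rbbp7 were higher in cycling cells of all 4 tumours. With Ezh2, Suz12 and Phf19 that made 8 of 10 genes, beside 20.7% of all genes tested. Their log2 fold changes ± SE were 0.15 ± 0.05 for Eed, 0.32 ± 0.08 for Mtf2, 0.60 ± 0.16 for Cbx2, 0.21 ± 0.05 for Rbbp4 and 0.17 ± 0.05 for Rbbp7, with edgeR adjusted p from 0.0609 to 0.140. Jarid2 stood at 7.37, 10.7, 10.3 and 11.4 CPM in cycling cells and was lower there in 3 of 4 tumours (−0.35 ± 0.11, edgeR adjusted p = 0.108). DESeq2 called Mtf2, Rbbp4 and Rbbp7 in addition, with adjusted p of 0.0215, 0.000915 and 0.0355. It also called more genes in total than edgeR, as counted in the section on processing.

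**Figure D1:**
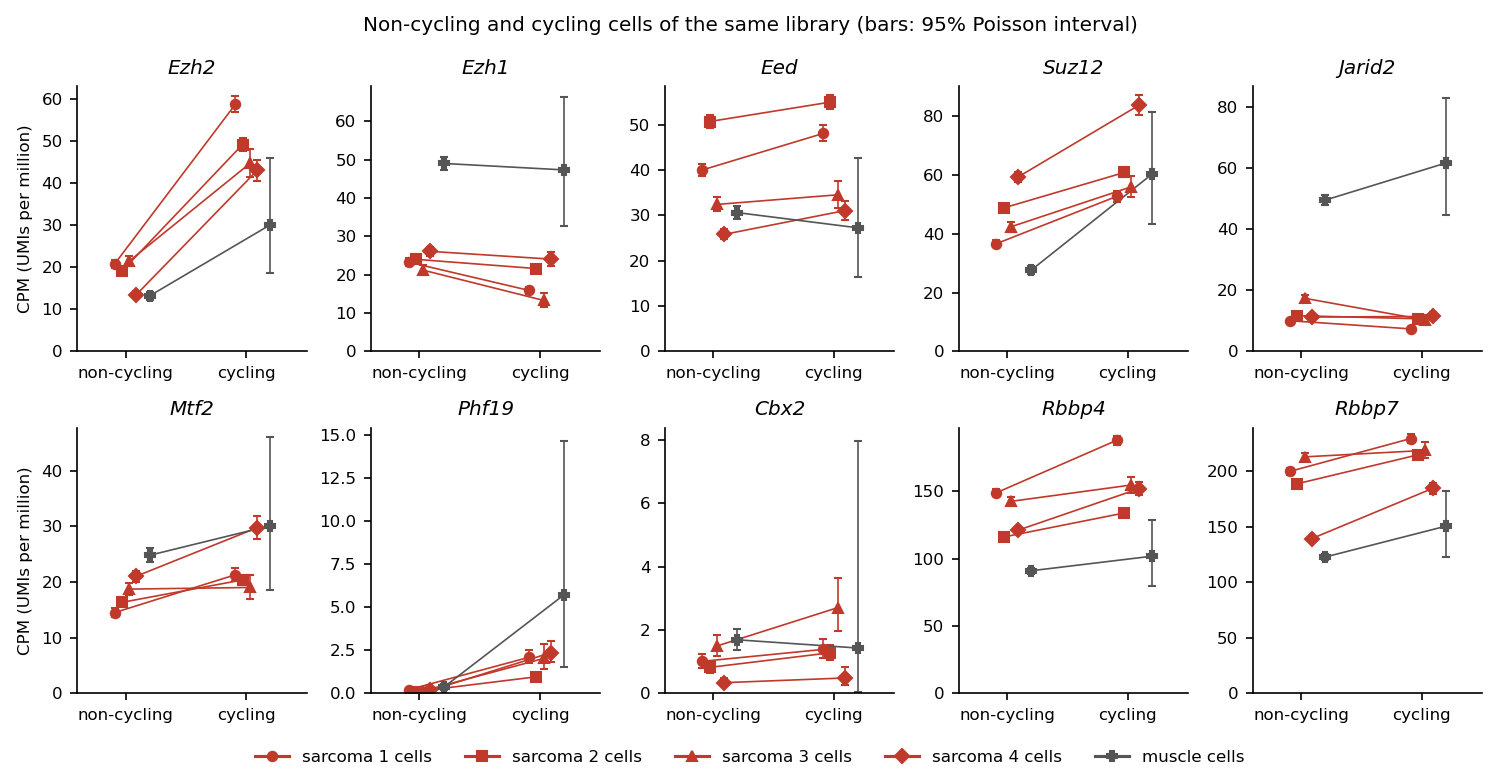
Level of each gene in CPM (y axis, from 0) in non-cycling and cycling cells of the same library. Red lines join the 2 classes of each sarcoma, the grey line joins muscle cells, and bars are 95% Poisson intervals. Ezh2 and Phf19 rise in every sarcoma, Suz12 rises by a smaller step, and the muscle line for cycling cells rests on 73 cells.

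Division is graded, and a single UMI of Mki67 or Top2a marks it weakly. Sarcoma cells were therefore also grouped by the sum of their UMIs of both genes. Ezh2 averaged 18.7 ± 3.61 CPM (SD, n = 4 sarcomas) in cells with 0 UMIs, 23.4 ± 3.27 with 1, 31.5 ± 10.4 with 2 to 4 and 98.8 ± 18.6 with 5 or more. Most of the difference lay in the last class, which held 1732 of the sarcoma cells and ranged from 86.0 to 126 CPM over tumours. Suz12 averaged 46.7 ± 9.71, 52.7 ± 10.4, 54.5 ± 14.0 and 87.4 ± 32.7 CPM over the same classes. In the last class Suz12 reached 135 CPM in sarcoma 4 and 61.2 to 79.1 in the other 3. Ezh1 averaged 23.6 ± 2.02, 21.0 ± 4.23, 18.9 ± 3.34 and 15.7 ± 7.24 CPM, and Jarid2 12.6 ± 3.27, 11.4 ± 1.60, 10.4 ± 1.61 and 7.83 ± 1.85.

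The non-cycling class still held cells with other division transcripts. In the 4058 sarcoma cells with 0 UMIs of all 10 division genes, Ezh2 stood at 15.6 ± 3.74 CPM (SD, n = 4), with 14.1, 15.7, 20.7 and 11.9 in sarcomas 1 to 4. Free RNA in droplets can add UMIs to cells that do not express a gene, and no background level was estimated for Ezh2, so this level is not read as expression. Gchfr, the gene of the sarcoma rule, stood at 35.8, 95.9, 27.8 and 6.30 CPM in non-cycling stroma, against 0.176 in muscle, and the part of free RNA in these values was not tested. These cells held a mean of 17899 to 22404 UMIs over tumours, fewer than the 38161 to 46739 of the class with 5 or more UMIs of Mki67 and Top2a, and the part of depth was not tested. Phf19 stood at 0.0474 ± 0.0363 CPM in the same cells and at most at 0.0779 in any tumour.

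**Figure D2:**
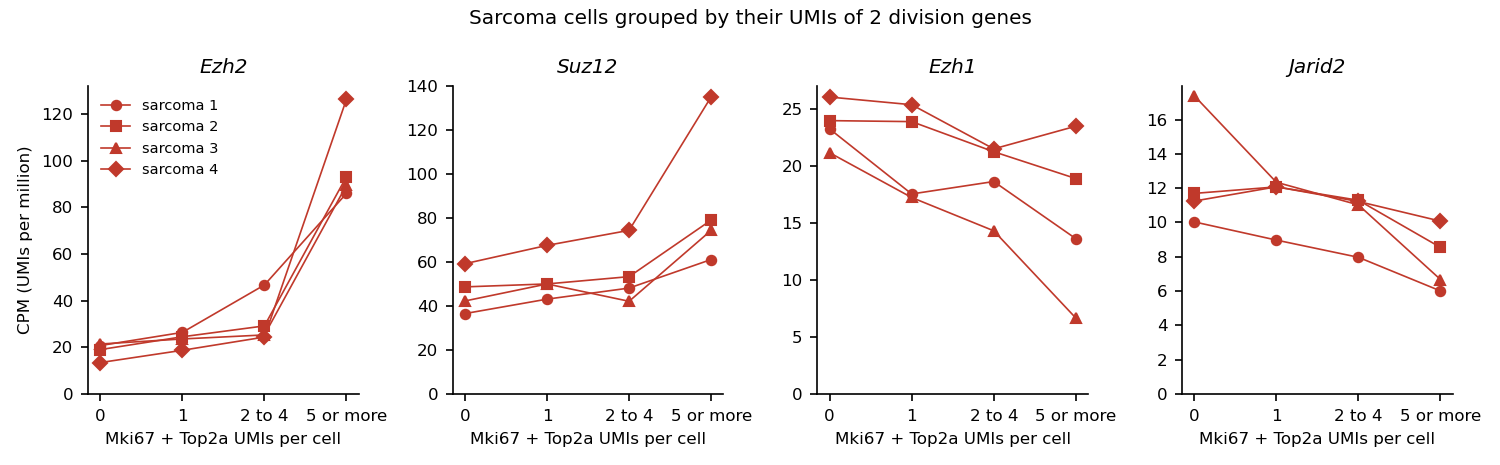
Level in CPM (y axis, from 0) of Ezh2, Suz12, Ezh1 and Jarid2 in sarcoma cells grouped by their summed Mki67 and Top2a UMIs (x axis), with 1 line per sarcoma. Ezh2 lies between 86.0 and 126 CPM in the class with 5 or more UMIs and between 13.5 and 21.5 in the class with 0.

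Promoters of the 4 genes that passed are shown because sequence motifs for cell cycle control are known from such promoters. They were read from RefSeq promoter windows of build GRCm38.p6, which matched 9 of the 10 genes, and run from 100 bases before the transcription start to 15 after it. The 4 motifs, searched on both strands of the full windows from 250 bases before to 50 after the start, were TTTNGCGC and GGCGGGAA, bound by E2F factors, CCAAT, bound by NF-Y, and TTTGAA, the core of the cell cycle homology region. Capitals mark matches, which did not overlap each other.
Ezh2 (chr6:47595016-47595130, minus strand): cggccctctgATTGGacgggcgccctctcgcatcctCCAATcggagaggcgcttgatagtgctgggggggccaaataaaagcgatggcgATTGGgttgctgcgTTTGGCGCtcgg
Suz12 (chr11:79993006-79993120, plus strand): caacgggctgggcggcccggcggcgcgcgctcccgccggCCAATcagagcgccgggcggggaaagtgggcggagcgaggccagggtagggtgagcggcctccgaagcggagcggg
Phf19 (chr2:34913962-34914076, minus strand): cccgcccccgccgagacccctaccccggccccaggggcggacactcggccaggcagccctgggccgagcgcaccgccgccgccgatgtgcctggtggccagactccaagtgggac
Ezh1 (chr11:101226449-101226563, minus strand): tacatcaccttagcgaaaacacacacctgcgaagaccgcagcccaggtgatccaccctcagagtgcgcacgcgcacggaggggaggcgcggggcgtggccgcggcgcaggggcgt
Among the 9 genes with a window, TTTNGCGC was found in that of Ezh2 alone, at base 4 counted from the start, and in 1.38% of the 32851 promoters of the table. Ezh2 also held CCAAT at bases −90, −64 and −11, a motif in 37.4% of promoters, and Suz12 held it at −61. CCAAT was likewise found in windows of Rbbp4, Rbbp7, Mtf2, Eed and Jarid2, which did not pass the division test, so 7 of the 9 genes had a match. TTTGAA, in 17.9% of promoters, matched Suz12 at −203, before the stretch shown, and also Eed and Mtf2. GGCGGGAA, in 2.19% of promoters, matched none. The windows of Phf19 and Ezh1 held none of the 4 motifs. A match describes the letters only.

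Genes whose level followed that of Ezh2 most closely were division genes. Over 23 sums of library, class and division with at least 50 cells each, Pearson's r of log2(CPM + 1) with Ezh2 was highest among 8546 genes for Smc2 (0.97), Birc5 (0.96), Knstrn (0.95), Ube2c (0.95) and Lig1 (0.95). Smc2 encodes a condensin subunit, Birc5 survivin, Knstrn a kinetochore protein, Ube2c a ubiquitin-conjugating enzyme of the anaphase and Lig1 the replicative DNA ligase. The sums share libraries and depth and were themselves split into cycling and non-cycling cells, which favours division genes by construction. Birc5 and Ube2c also belong to the stricter division rule of 10 genes. So r is a description, and division genes at the top of this list are not a separate result. Within the complex r with Ezh2 was 0.72 for Phf19, 0.65 for Rbbp7 and Rbbp4, 0.56 for Suz12, −0.16 for Ezh1 and −0.29 for Jarid2.

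For comparison, 17 of 18 S phase genes and 12 of 12 mitotic genes rose in cycling sarcoma cells, with median log2 fold changes of 1.47 and 4.61 against −0.04 over all genes tested. The replicative ligase gene Lig1 went from 15.9 ± 3.41 to 60.7 ± 15.2 CPM (SD, n = 4; log2 fold change 1.88 ± 0.09, SE, edgeR adjusted p = 0.000173). Ezh2, at 1.36, lay near the S phase median and far under the mitotic one. The cells were split by Mki67 and Top2a, so a rise of division genes is built into this comparison. The size of each step depends on that rule, and no phase of division is read for Ezh2.

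Over 4 lists of other genes of the polycomb system and its opponents, 7 of 45 tested genes passed the division test (15.6%), 2 higher and 5 lower, beside 8.32% of all genes tested. Of 5 further PRC2 accessory genes, Lcorl rose (0.56 ± 0.07, log2 fold change ± SE, edgeR adjusted p = 0.00858) and Phf1, a homologue of Mtf2 and Phf19, fell (−0.50 ± 0.10, adjusted p = 0.0375). Phf1 stood at 14.4 ± 3.64 CPM in non-cycling and 10.3 ± 2.11 in cycling sarcoma cells. None of 25 genes of Polycomb repressive complex 1 rose and 2 fell: Ring1, an E3 ligase for histone H2A (−0.24 ± 0.05, adjusted p = 0.0487), and Cbx7, a reader of the mark (−0.60 ± 0.14, adjusted p = 0.0497). The median of this list was −0.09, against −0.04 over all genes. Of 8 tested genes that remove lysine 27 methylation or belong to the PR-DUB deubiquitinase, the demethylase gene Kdm6b and Ogt fell (−0.27 ± 0.06 and −0.42 ± 0.07) and none rose. Of 7 genes for lysine 36 methyltransferases or lysine 27 acetyltransferases, whose marks are known to counteract PRC2, the lysine 36 methyltransferase gene Whsc1, also called Nsd2, rose from 43.5 ± 14.1 to 63.4 ± 16.1 CPM (0.53 ± 0.07, adjusted p = 0.00889) and none fell. None of 13 tested classical polycomb target genes passed with edgeR in either direction. An unadjusted p under 0.05 was seen for 4 of the 13, and the share of all genes at that level is not given here.

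The step with division was set beside the same step in stroma. In cycling over non-cycling stroma Ezh2 was 2.40 ± 0.42 times as high (SD, n = 4), against 2.67 ± 0.46 times in sarcoma cells. No gene among 14353 had a division effect that differed between the classes (edgeR, 0%; 341 genes at an unadjusted p under 0.05; 0 with DESeq2). For Ezh2 the difference between the steps was 0.20 ± 0.24 on the log2 scale (SE), and 0.19 ± 0.27 without sarcoma 4. Cycling stroma numbered 26, 22, 94 and 14 cells in sarcomas 1 to 4, which limits what could be detected.

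In non-cycling cells, Ezh2 levels of sarcoma cells and stroma lay close together. Non-cycling stroma held 18.5, 14.4, 18.5 and 15.7 CPM of Ezh2 in sarcomas 1 to 4, beside 20.8, 19.1, 21.5 and 13.5 in non-cycling sarcoma cells. The sarcoma cell value was higher in 3 tumours and lower in sarcoma 4, and the ranges overlapped. The log2 fold change was 0.17 ± 0.14 (SE, edgeR adjusted p = 0.482), and 0.26 without sarcoma 4. With cycling cells included it was 0.49 ± 0.20 (adjusted p = 0.200). Over whole libraries Ezh2 stood at 35.3, 32.3, 24.3 and 21.7 CPM, where the share of cycling cells and the level per cell both enter.

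None of the 9 tested genes was called between non-cycling sarcoma cells and stroma, beside 1.21% of 14232 genes tested. In simulated data of this comparison edgeR found 0% of genes changed by 0.5 or 1 on the log2 scale. A missing call here therefore carries little information. Ezh1, Suz12, Rbbp4 and Rbbp7, all higher in sarcoma cells, had an unadjusted p under 0.05, with edgeR adjusted p from 0.124 to 0.165. The share of all genes with an unadjusted p that low is not given here, so no excess among the 9 genes is read from this. With all cells 0 of 10 were called by edgeR, beside 1.17% of 14569 genes. Suz12, Phf19, Rbbp4 and Rbbp7 then had an unadjusted p under 0.05 (edgeR adjusted p 0.0972 to 0.172), again without the share of all genes at that level. DESeq2 called Suz12, Rbbp4 and Rbbp7 (adjusted p 0.0117, 0.00741 and 0.0324 in non-cycling cells). It called many more genes than edgeR in this comparison, as counted in the section on processing, so these calls do not stand beside the 1.21%. Stroma of sarcomas 1 to 3 held 26.4, 24.5 and 25.0 CPM of Suz12 and that of sarcoma 4 held 52.6, while sarcoma cells held 36.6 to 59.3. Without sarcoma 4 the Suz12 levels were 25.3 ± 0.97 CPM in stroma and 42.5 ± 6.07 in sarcoma cells (SD, n = 3), with no overlap, and the log2 fold change went from 0.62 ± 0.15 to 0.74 ± 0.16 (SE, edgeR adjusted p = 0.124 and 0.0697).

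The histone-binding subunits Rbbp4 (ENSMUSG00000057236, chromosome 4, 129307100 to 129335370, minus strand) and Rbbp7 (ENSMUSG00000031353, chromosome X, 162760402 to 162779092, plus strand) also serve other chromatin complexes. Rbbp7 stood at 200, 189, 213 and 139 CPM in non-cycling sarcoma cells and at 140, 107, 117 and 141 in stroma. It was higher in sarcoma cells of sarcomas 1 to 3 and level in sarcoma 4. The log2 fold change was 0.58 ± 0.16 (SE, edgeR adjusted p = 0.140). With stroma limited to cells holding a Smarcb1 UMI, an alternative added after seeing the data, it was 0.81 (edgeR adjusted p = 0.0367). The adjusted p ranged from 0.0324 to 0.385 over the alternatives. That setting also called many more genes in total, as counted in the section on processing. Rbbp4 stood at 149, 116, 142 and 121 CPM in sarcoma cells and 132, 83.0, 93.3 and 106 in stroma, higher in all 4 tumours (0.39 ± 0.11, adjusted p = 0.141). Rbbp4 and Rbbp7 encode near-identical proteins, and how shared reads were counted is not given in the sources used here.

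Ezh1, Suz12 and Rbbp4 were the 3 genes above stroma in every tumour, beside 16.8% of all genes tested, and Mtf2 and Cbx2 were below it in every tumour, beside 15.5%. Ezh1 stood at 14.1, 11.3, 18.9 and 17.5 CPM in stroma and 21.2 to 26.1 in sarcoma cells, with no overlap, which 2.35% of genes tested show in that direction (0.65 ± 0.22, edgeR adjusted p = 0.165). Without sarcoma 4 the Ezh1 means were 14.8 ± 3.87 and 22.8 ± 1.46 CPM (SD, n = 3). Eed, the subunit that binds the methylated lysine (ENSMUSG00000030619, chromosome 7, 89954654 to 89980983, minus strand), differed between tumours in sarcoma cells. It stood at 40.0, 50.7, 32.4 and 25.8 CPM in sarcoma cells and 37.6, 28.2, 25.4 and 31.9 in stroma.

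Without sarcoma 4, edgeR called 1360 genes between non-cycling sarcoma cells and stroma, and 0 of the 9 genes. The fit with sarcoma 4 tested 14232 genes, and the number tested without it is not given here. The 0 of 9 is therefore not read as a result about these genes. The log2 fold changes ± SE were then 0.64 ± 0.27 for Ezh1, 0.42 ± 0.20 for Eed, 0.42 ± 0.13 for Rbbp4 and 0.73 ± 0.13 for Rbbp7, which came closest (edgeR adjusted p = 0.0508). Jarid2, Mtf2 and Cbx2 had −0.44 ± 0.16, −0.27 ± 0.14 and −0.65 ± 0.41. Jarid2 was thus lower in sarcoma cells than in stroma in each of sarcomas 1 to 3, and 1.09 times stroma in sarcoma 4, and it did not pass with that tumour (−0.29 ± 0.19, adjusted p = 0.384) or without it (0.156).

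**Figure D3:**
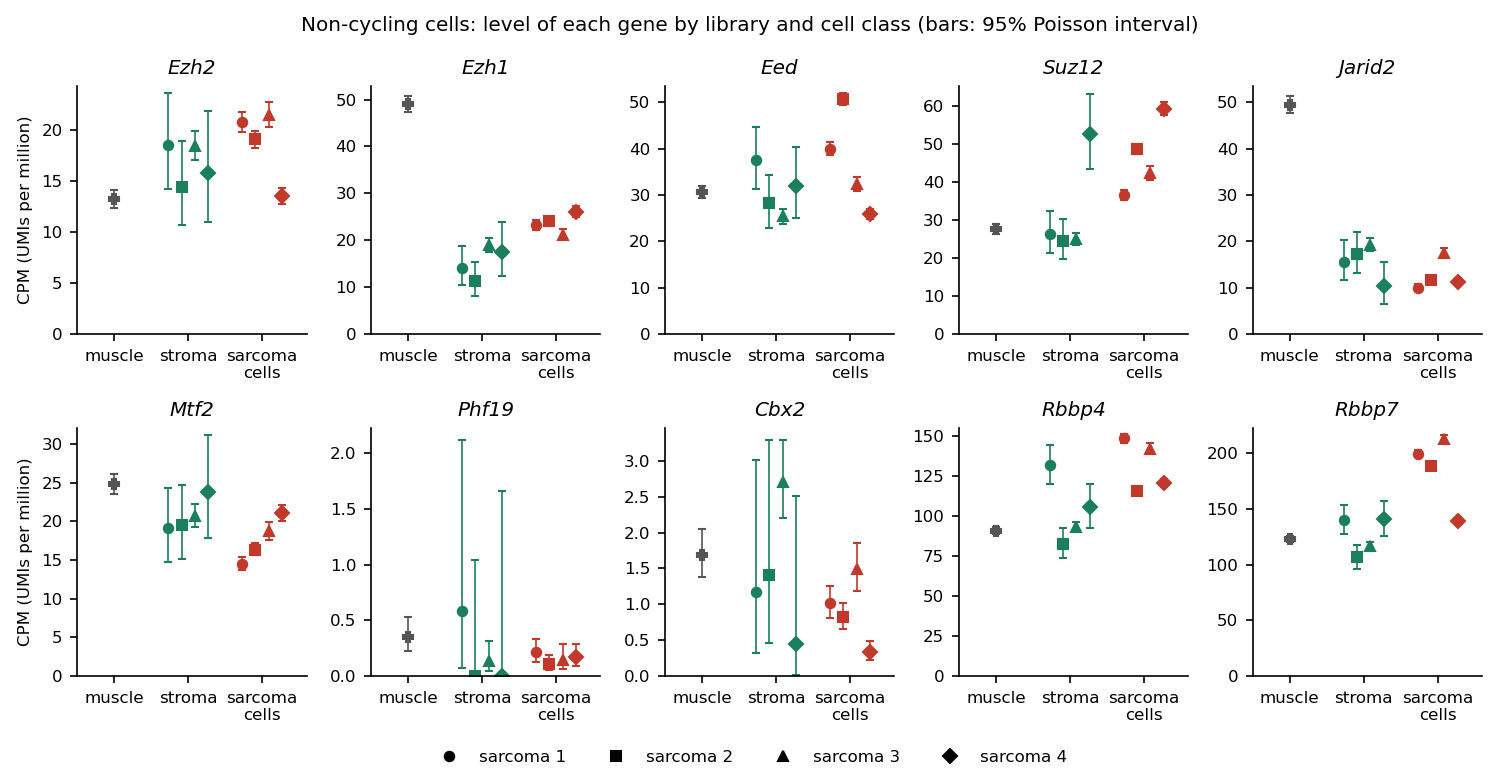
Level of each gene in CPM (y axis, from 0) in non-cycling cells of muscle (grey), stroma (green) and sarcoma cells (red), with 1 symbol per sarcoma and bars for 95% Poisson intervals. Jarid2 and Ezh1 in muscle, at 49.5 and 49.0 CPM, lie above every sarcoma and stroma value, and the Suz12 value of the stroma of sarcoma 4 lies apart from the other 3.

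Among sarcoma cells the widest gap to muscle, by log2 fold change of the 10 genes, was that of Jarid2, a PRC2 accessory subunit (ENSMUSG00000038518, chromosome 13, 44729474 to 44921643, plus strand). Non-cycling muscle cells held 49.5 CPM, non-cycling sarcoma cells 10.0, 11.7, 17.4 and 11.2, and stroma 15.6, 17.2, 19.3 and 10.3. Sarcoma cells thus held 0.203 to 0.351 of the muscle level and stroma 0.209 to 0.390, with no overlap with muscle in any tumour. The 173 non-cycling muscle cells that met the stroma rule themselves held 26.7 CPM of Jarid2 (95% Poisson interval 20.2 to 34.7). Stroma stood at 0.583, 0.645, 0.722 and 0.387 of that level in sarcomas 1 to 4, so the gap for stroma was smaller against muscle cells chosen by the same rule. The log2 fold changes against all non-cycling muscle cells were −1.80 ± 0.29 for sarcoma cells and −1.55 ± 0.38 for stroma (SE), with edgeR adjusted p of 0.206 and 0.399. DESeq2 gave −1.81 and −1.51, with adjusted p of 2.20e-06 and 0.0412. Over its alternatives the adjusted p in sarcoma cells ran from 2.20e-06 to 0.513, and the log2 fold change from −2.04 to −1.74.

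Ezh1 was also below muscle, and in stroma its gap was of the size of that of Jarid2. Muscle held 49.0 CPM, against 21.2 to 26.1 in sarcoma cells and 11.3 to 18.9 in stroma. Both classes lay under muscle in all 4 tumours, sarcoma cells at 0.432 to 0.532 of it and stroma at 0.230 to 0.387. Muscle cells that met the stroma rule held 41.5 CPM of Ezh1, of which stroma had 0.272 to 0.457. The log2 fold changes were −0.84 ± 0.33 in sarcoma cells and −1.56 ± 0.32 in stroma (SE, edgeR adjusted p = 0.434 and 0.373). For stroma limited to cells with Smarcb1 UMIs, an alternative added after seeing the data, they were −1.63 for Ezh1 and −1.46 for Jarid2. Both passed (edgeR adjusted p = 0.0450 and 0.0399, within ranges of 0.0216 to 0.825 and 0.0399 to 0.825 over the alternatives). That setting called many more genes than the main fit, as counted in the section on processing. The number tested with it is not given here, so these calls are not read as particular to Ezh1 and Jarid2.

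Without sarcoma 4 the stroma values were −1.59 ± 0.32 for Ezh1 and −1.39 ± 0.25 for Jarid2 (log2 fold change and SE), with edgeR adjusted p of 0.0762 and 0.0643, and 275 genes were called.

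Neither comparison with the single muscle library called any gene with edgeR. The share called was 0% of 17344 genes for sarcoma cells, with 2028 at an unadjusted p under 0.05 and 1568 called by DESeq2, and 0% of 12407 genes for stroma, with 1101 and 507. In simulated data of this design edgeR recovered none of the genes changed by 3 on the log2 scale, so a missing call carries little information. Of the 10 genes, 4 lay above muscle in non-cycling sarcoma cells of all 4 tumours (Ezh2, Suz12, Rbbp4 and Rbbp7), beside 19% of genes tested. Ezh2 in sarcoma 4 was only 1.02 times muscle. Another 5 lay below muscle (Ezh1, Jarid2, Mtf2, Phf19 and Cbx2), beside 32%. Of these, Phf19 was near the limit of detection, at 0.104 to 0.212 CPM against 0.351 in muscle. Cbx2 was also low, at 0.339 to 1.50 CPM against 1.69. Stroma of all 4 tumours lay above muscle in Ezh2, beside 17.2% of genes tested, and below it in Ezh1, Jarid2 and Mtf2, beside 31.7%. For Mtf2 this did not hold against muscle cells that met the stroma rule, whose 17.2 CPM lay under stroma of every tumour. Scaling matters here: the median log2 fold change of all genes was 0.16 with TMM factors and −0.03 by library size alone, and no direction of a gene that lay on 1 side of muscle in all tumours flipped except that of Phf19 under the alternatives, which ran from −1.16 to 0.28.

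Ezh2 in non-cycling cells was above muscle in sarcomas 1 to 3. Its 13.5 CPM in sarcoma 4 (95% Poisson interval 12.7 to 14.3) could not be told from the 13.2 of muscle (12.3 to 14.1), and sarcomas 1 to 3 lay at 1.57, 1.44 and 1.62 times muscle. The log2 fold change was 0.69 ± 0.39 (SE, edgeR adjusted p = 0.547). Non-cycling sarcoma cells still included cells with other division transcripts. With 0 UMIs of all 10 division genes, Ezh2 in sarcoma cells ran from 11.9 to 20.7 CPM over tumours, a range that takes in the 13.2 of muscle. The muscle level under that rule of 10 genes is not given here. Suz12 stood at 27.6 CPM in muscle and at 1.32, 1.76, 1.53 and 2.14 times that in sarcoma cells (0.97 ± 0.44, adjusted p = 0.481), while stroma of sarcomas 1 to 3 lay at 0.956, 0.888 and 0.905 times muscle. Rbbp4 and Rbbp7 stood at 91.0 and 123 CPM in muscle (0.74 ± 0.32 and 0.79 ± 0.35 in sarcoma cells, adjusted p = 0.467 and 0.475).

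The low-level partners were below muscle in non-cycling sarcoma cells. Mtf2, an accessory subunit that binds unmethylated CpG DNA (ENSMUSG00000029267, chromosome 5, 108065674 to 108109004, plus strand), stood at 14.5, 16.3, 18.7 and 21.0 CPM, against 24.8 in muscle and 19.1, 19.5, 20.7 and 23.8 in stroma. Against all non-cycling muscle cells the order was thus the same in each tumour, sarcoma cells under stroma under muscle. Thinning to 2000 UMIs brought the difference from stroma to 0.02. Muscle cells that met the stroma rule held 17.2 CPM of Mtf2 (Poisson interval 12.0 to 23.8). Stroma stood at 1.11, 1.13, 1.21 and 1.39 times that level in sarcomas 1 to 4, so that order of stroma and muscle was reversed. Stroma of sarcomas 1 to 3 lay inside the interval. The log2 fold changes of sarcoma cells were −0.22 ± 0.13 against stroma and −0.29 ± 0.34 against all non-cycling muscle cells (SE), and neither passed. Cbx2, the reader in Polycomb repressive complex 1 (ENSMUSG00000025577, chromosome 11, 119022962 to 119031270, plus strand), stood at 1.01, 0.823, 1.50 and 0.339 CPM, against 1.69 in muscle and 1.17, 1.41, 2.70 and 0.450 in stroma. The stroma values of Cbx2 in sarcomas 1, 2 and 4 rest on 4, 5 and 1 UMIs.

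Muscle cells differed from sarcoma cells in a set of genes named handling genes here, and the cause of that difference was not tested. The 7 immediate early and heat shock genes Fos, Jun, Egr1, Atf3, Hspa1a, Hspa1b and Dnajb1, a list added after seeing the data, summed to 17551 CPM in non-cycling muscle cells and 1925 to 3460 in sarcoma cells. When muscle cells were split into equal terciles by that sum, the lowest tercile, at 1841 CPM, held 52.0 CPM of Jarid2 and 53.0 of Ezh1. The highest tercile, at 36823 CPM, held 48.8 and 45.3. These terciles are cells of 1 library and not replicates, and the part of handling in the differences from sarcoma cells was not tested. In sarcoma cells Ezh1 was higher in the highest tercile (29.1, 29.2, 24.8 and 29.4 CPM) than in the lowest (20.3, 20.4, 17.8 and 23.3) in all 4 tumours.

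Polycomb partners outside the 10 genes were not called against muscle either. The edgeR test called 0% of all 17344 and 12407 genes there, so this is not read as a result about them. Phf1 stood at 33.2 CPM in muscle, 14.4 ± 3.64 in sarcoma cells and 11.5 ± 1.39 in stroma (SD, n = 4; −1.03 ± 0.34 and −1.42 ± 0.28 on the log2 scale, SE, edgeR adjusted p = 0.374 and 0.353, the latter 0.0696 without sarcoma 4). Phc2, a subunit of Polycomb repressive complex 1, stood at 33.2 CPM in muscle, 85.4 ± 22.7 in sarcoma cells and 59.1 ± 7.38 in stroma (1.56 ± 0.47 and 0.94 ± 0.30, adjusted p = 0.340 and 0.516, the latter 0.156 without sarcoma 4). The 25 genes of that complex had a median of 0.14 in sarcoma cells against muscle, beside 0.16 over all genes.

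Among 23 classical polycomb target genes, 13 could be tested between non-cycling sarcoma cells and stroma, and 2 passed in opposite directions. Lhx2, a homeobox gene, stood at 2.28 ± 2.67 CPM in sarcoma cells and 0.107 ± 0.140 in stroma (SD, n = 4; log2 fold change 4.21 ± 0.50, SE, edgeR adjusted p = 0.0432). Wt1, a zinc finger transcription factor gene, stood at 0.0318 ± 0.00861 CPM in sarcoma cells and at 20.1 ± 21.5 in stroma, from 2.25 to 46.8 over tumours (−8.67 ± 1.06, adjusted p = 0.0439). The 2 of 13 stand beside 1.21% of all genes tested. Non-cycling stroma of sarcomas 1, 2 and 4 held 3406607, 3543856 and 2223616 UMIs of all genes, so its Lhx2 level rests on very few UMIs. Non-cycling sarcoma cells held 54756469 to 105769035 UMIs over tumours, so their Wt1 level also rests on few. The sizes of both fold changes are uncertain to that extent. Without sarcoma 4, where 1360 genes were called, Lhx2 had 4.17 ± 0.53 and Wt1 −9.50 ± 0.90 (edgeR adjusted p = 0.0303 and 0.0214). Cdkn2a and Bmp2 of the same list also passed in that fit, both higher in sarcoma cells. They had 2.89 ± 0.31 and 2.24 ± 0.25 (edgeR adjusted p = 0.0244 and 0.0263), and did not pass with sarcoma 4 (0.140 and 0.0673). The Lhx2 and Wt1 calls were lost without sarcoma 1 (edgeR adjusted p = 0.228 for Lhx2 and 0.194 for Wt1) and without sarcoma 2 (0.147 and 0.154). They were also lost without sarcoma 3 (0.208 and 0.140) and with no library block (0.223 and 0.0517). Over its alternatives Lhx2 passed in 8 of 16, with adjusted p from 0.000423 to 0.228, and Wt1 in 12 of 17, with adjusted p from 3.00e-16 to 0.194. Neither gene changed sign in any of them. Cdkn2a, the tumour suppressor locus that PRC2 is known to silence, stood at 0.319 CPM in muscle, 75.9 to 200 in sarcoma cells and 12.0 to 104 in stroma. Its log2 fold change in sarcoma cells against muscle was 8.92 ± 1.02 (SE) and did not pass with edgeR (adjusted p = 0.163). The deposited counts do not separate the 2 products of that locus.

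**Figure D4:**
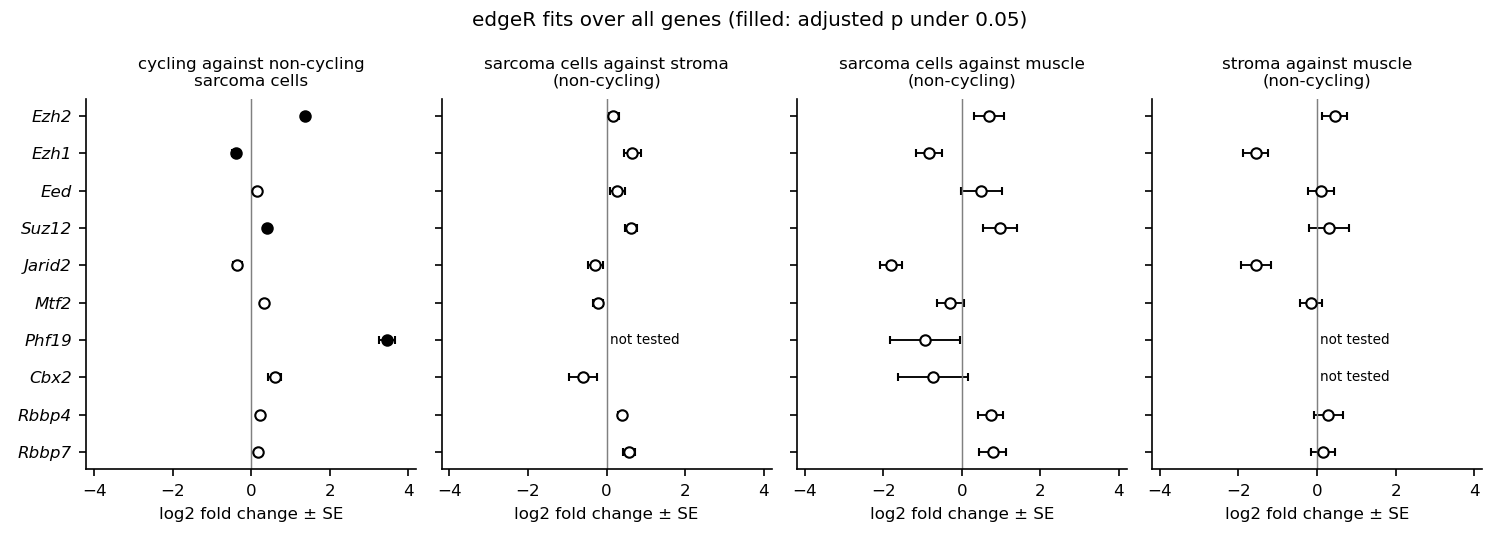
Log2 fold change with its standard error (x axis) of each gene in 4 comparisons fitted over all genes with edgeR, filled where the adjusted p is under 0.05. Filled points occur for Ezh2, Ezh1, Suz12 and Phf19 in cycling against non-cycling sarcoma cells, and Jarid2 lies at −1.80 and −1.55 in the comparisons with muscle.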

How the data were processed

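Libraries of sorted cells were made with a 10x 3′ kit, per the labels. The authors deposited raw UMI counts per gene and barcode; per the file headers they come from Cell Ranger 6.0.1, and per the submitters' processing notes from mm10. The sources used here do not give the annotation release, the strand setting or the handling of shared reads. A barcode needed 500 genes and no more than 10% mitochondrial UMIs (37519 of 39930 passed); no pair of libraries shared more than 22 barcodes. Doublets were not removed: Scrublet (scanpy 1.11.5) called 5, 0, 2, 142 and 0 cells, under 0.5% in 4 of 5 libraries, so it has not worked there.

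UMIs were summed per library and class (at least 10 cells) in Python 3.11.15 and tested over all genes in edgeR 4.0.16 (R 4.3.3) by quasi-likelihood, with TMM factors, filterByExpr and Benjamini-Hochberg adjustment at 0.05. Comparisons within sarcoma libraries kept the library as a block, since both classes come from the same library; fits of 1 comparison left 3 residual degrees of freedom. The lone muscle sum was assumed to vary like the sarcomas. Alternatives were DESeq2 1.42.0, other scaling, no filter, leaving out each sarcoma, no block, thinning to 2000 UMIs, other gates and division rules, and other cell filters. Stroma with Smarcb1, a block for each class in each library, the handling genes and the marker groups within muscle were added after seeing the data.

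The members, lists and tests were chosen with earlier results of these data known. Named genes were all 10 members; of each other list up to 4 genes with the smallest adjusted p among those that passed, otherwise the 2 with the highest mean CPM; and the 5 genes most correlated with Ezh2. Not all are printed. Cdkn2a, Lhx2 and Wt1 fall under that rule, and Bmp2 is named for its call without sarcoma 4. Positions come from GENCODE of GRCm38 (mm10), matched for 27645 of 28001 features. Genes on the opposite strand overlap Rbbp4 (Sync, Gm26722), Mtf2 (Tmed5), Ezh2 (Gm26625), Suz12 (Gm26563) and Rbbp7 (Txlng), so their levels are uncertain to that extent.

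Tested on simulated data with 200 changed genes, the share found by edgeR for cycling against non-cycling sarcoma cells was 33.3% at a log2 change of 0.5 and 79.8% at 1 (18 false calls among 14131 genes of 14329). It was 0% at both sizes for non-cycling sarcoma cells against stroma (13903 genes), and 0% at log2 changes of 1 and 3 for the comparisons with muscle (16652 and 11992 genes).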

Additional observations from a re-analysis of the deposited data

Results flagged for a closer look

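Suz12 in the non-cycling stroma of sarcoma 4 stood at 52.6 CPM (95% Poisson interval 43.5 to 63.1, 117 UMIs in 65 cells), far from the 24.5 to 26.4 CPM of the stroma of the other 3 sarcomas. The gap to the nearest of them was 0.933 of the whole range. Sarcoma cells of the same tumour held 59.3 CPM. Chance flags about 1 in 20 such groups, and 40 groups were examined. That stroma class also stood apart in Smarcb1 and in its progenitor markers, and their part in the value was not tested.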

How the results depend on the processing

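No result changed direction past its threshold. The number of genes called between cycling and non-cycling sarcoma cells was 1208 (65.1% higher). It was 2360 with DESeq2 (46.7% higher), 398 to 856 on leaving out 1 sarcoma (398 without sarcoma 1, 595 without sarcoma 2), 189 with no replicate block, 669 thinned to 2000 UMIs, 574 with the strict division rule and 2119 with division called after thinning. Scaling moved the share higher to 79.5% by library size alone and 58.4% with RLE.

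Between all sarcoma cells and stroma 171 genes were called, and 3218 with DESeq2, 38 with no replicate block, 493 after thinning, 551 with a stroma gate of 8 UMIs, 1186 for stroma with Smarcb1, and 0 to 1567 on leaving out 1 sarcoma. In non-cycling cells 172 were called, and 2829 with DESeq2, 0 with no replicate block, 484 after thinning, 514 with the gate of 8 UMIs, 1491 for stroma with Smarcb1, 575 with the strict division rule, and 0 to 1360 on leaving out 1 sarcoma. The highest counts, 1567 and 1360, came without sarcoma 4; without sarcoma 1, 2 or 3 at most 2 genes were called.

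Against muscle 0 genes were called for sarcoma cells, and 1568 with DESeq2 and 4 after thinning. For stroma 0 were called, and 507 with DESeq2, 24 after thinning, 54 with the strict division rule, 8 with the gate of 8 UMIs, 543 for stroma with Smarcb1, and 0 to 275 on leaving out 1 sarcoma (275 without sarcoma 4). The number of genes whose division step differed between classes was 0 in every fit run, also with a replicate block for each class in each library, where Ezh2 had 0.21 ± 0.16 (log2 fold change ± SE, edgeR adjusted p = 0.837). Without the replicate block the Suz12 and Ezh1 calls with division were lost (adjusted p = 0.99992 for both), and those of Ezh2 and Phf19 stayed (adjusted p = 0.0177 and 0.00887). Of the alternative values for single genes, 873 kept their side of the threshold, 21 moved past it and 12 fell short of it. The causes were not tested. For the division step comparison, 2 alternatives could not be fitted and were not run: at least 50 cells per sum, and division called after thinning. Stroma depth limits Phf19 and Cbx2 most.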

Other observations

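Muscle cells were also described by marker group, since the sort held several cell types. Jarid2 stood at 51.3 CPM in 4672 non-cycling cells with Pdgfra and fewer than 3 UMIs of the mural, tenocyte and glial lists. It stood at 58.4 CPM in 1079 cells with mural markers only, 39.0 in 1407 with tenocyte markers only and 63.1 in 29 with glial markers only. Every one of these groups lay above the 19.3 CPM that was the highest stroma value and the 17.4 CPM that was the highest value of non-cycling sarcoma cells. Ezh1 stood at 51.2, 45.1, 45.6 and 36.1 CPM in the same groups, all above the 26.1 CPM of sarcoma 4. Ezh2 stood at 13.1, 13.9, 12.3 and 36.1 CPM, the last in the 29 glial-marker cells. The groups come from 1 library, so no test was made. The 175 muscle cells that met the stroma rule held 26.7 CPM of Jarid2 when not cycling, under the other muscle groups, and their tenocyte markers summed to 14712 CPM against 1684 in all muscle.

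Cells of the sarcoma libraries that met neither rule numbered 2067, 603, 2303 and 3389. The non-cycling ones held 19.8 ± 3.29 CPM of Ezh2 (SD, n = 4), 25.8 ± 3.95 of Ezh1, 48.2 ± 11.8 of Suz12 and 18.1 ± 4.79 of Jarid2. Their Suz12 and Ezh1 means lay above those of stroma, and Jarid2 lay under muscle in all 4 libraries, as in the other sarcoma classes.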
